A study of Mus musculus with 14 samples.

Results

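The genes described here encode the Roquin and Regnase RNA-binding proteins of the mouse: Rc3h1 (Roquin-1), Rc3h2 (Roquin-2), Zc3h12a (Regnase-1), Zc3h12c (Regnase-3) and Zc3h12d (Regnase-4). They were chosen by name. Of the 56605 different probes on each array apart from the controls, 12 carry one of these 5 gene names: 1 for Rc3h1, 4 for Rc3h2, 2 for Zc3h12a, 3 for Zc3h12c and 2 for Zc3h12d. The samples are 14 preparations of total RNA from CD4+ T-cells, 7 labelled Roquin san/+ and 7 labelled wild-type, each hybridised to a one-colour array to compare the 2 genotypes. Roquin san/+ mice are heterozygous for the sanroque allele, a germline point mutation in Rc3h1 itself, so the mutated gene is one of those measured. Neither age nor treatment is given in the labels. They do not state how many mice lie behind the samples, so p-values measure the spread between these samples.

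Roquin proteins bind hairpins in the 3′ untranslated regions of mRNAs that encode immune co-receptors and cytokines, and recruit the CCR4-NOT complex, which shortens poly(A) tails. Regnase proteins carry an endonuclease domain and cut many of the same mRNAs, Regnase-1 with the helicase Upf1 during translation. In T-cells both families hold down costimulation and cytokine production. Regnase-1 and the Roquins are cleaved by the paracaspase Malt1 after the T-cell receptor is engaged. The sanroque substitution in Roquin-1 is known for raising Icos and the number of follicular helper T-cells.

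Each printed sequence is the first 30 of a probe's 60 bases, 5′ to 3′ on the strand of the mRNA. One probe stands for each tested gene, and a second is printed for Zc3h12a. The AU-rich pentamer ATTTA is in capitals, as a description of the letters and not of a binding site.
Rc3h1 A_55_P2096305: caccttttggattgtaaatatatgaaagtg
Rc3h2 A_51_P158400: ttgcaaatgggaagatggttaacagctgaa
Zc3h12a A_51_P297925: aggcgagATTTAaatattttaaatgaaaaa
Zc3h12a A_55_P2737772: gaaaacagctcaaatccttgccaagagtca
Zc3h12d A_52_P648688: tactcggttcATTTAggccacggttccatg

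These 5 probes lie in build mm9, as the scanner files give it, at chr1:162905017-162905076 (Rc3h1, plus strand), chr2:37230722-37230781 (Rc3h2, minus strand), chr4:124795870-124795929 and chr4:124803611-124803670 (Zc3h12a, minus strand) and chr10:7589850-7589909 (Zc3h12d, plus strand). They start at bases 10920, 3774, 2533, 760 and 3747 of the transcripts they were designed on. No exon annotation of this build was used here. The strand of 11 of the 12 probes is that of their gene. The exception is the Zc3h12c probe A_55_P2742495, whose given position is on the opposite strand and spans 24135 bases. Of the 12 probes, 2 hold ATTTA in their 60 bases and 5 hold it on either strand, where 8.08% and 17.0% of all probes do. Their GC content ran from 31.7% to 45.0%, beside a median of 41.7% over all probes. The Rc3h1 probe lies far downstream of the coding sequence that holds the sanroque mutation, so its level does not check which arrays carry the allele.

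A level here is the log2 of the scanner's processed signal less the 75th percentile of its array, taken over 10345 probes that every array called well above background, so a level of -2 is a signal 4 times below that percentile. Levels are compared between arrays for one probe and not between probes, whose brightness differs by sequence. On 2 arrays, Roquin san/+ G and wild-type E, the spots lay 2 grid rows away from their probe names and were moved back. Their correlation with the spot-wise median of all arrays was 0.0139 and 0.0151 as deposited and 0.91 and 0.889 after the move. Detection calls of these 2 displaced arrays come from misplaced control spots, and the lowest signals on them stop at levels of -5.88 and -5.68. Roquin san/+ C was the dimmest array, with a 75th percentile of the processed signal of 107, beside 339 to 996 on the others. The 7 CD4+ T-cell markers were all well above background on the 12 well-placed arrays. Roquin san/+ F had the highest level among the Roquin san/+ arrays for 6 of 7 B-cell, 7 of 8 myeloid, 5 of 5 NK, 5 of 5 erythroid and 2 of 2 CD8 markers. It had the lowest among them for 5 of 7 CD4+ T-cell markers. Their summed level was 3.89 on it, 4.26 to 5.25 on the remaining Roquin san/+ arrays and 4.06 to 5.23 in wild-type. The lower ends of these ranges were Roquin san/+ C and wild-type C. Wild-type C also had the highest summed myeloid (4.87), erythroid (4.62) and NK (-0.57) levels in wild-type, but not the highest B-cell or CD8 level. Slide 1 held 5 Roquin san/+ and 2 wild-type arrays, and slide 2 held 2 and 5.

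The differences between genotypes on the Rc3h1 and Rc3h2 probes ran from -0.08 to 0.14 on the log2 scale, and the Zc3h12a and Zc3h12d probes had higher means in Roquin san/+, by 0.38 to 0.49. No probe of these genes passed the test. With limma over 28812 probes, none had a Benjamini-Hochberg adjusted p below 0.05 (0%). In all, 1099 probes (3.81%) had an unadjusted p below 0.05, of which 999 (3.47% of those tested) were higher in Roquin san/+. Of the 12 probes, 9 were well above background on all 6 well-placed arrays of at least one genotype and were tested. They cover 4 genes, since no Zc3h12c probe was tested. None of the 9 had an unadjusted p below 0.05, and 7 of the 9 had a difference above 0, where 60.4% of all tested probes did. The levels of the 2 genotypes overlapped for all 12 probes.

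**Figure D1:**
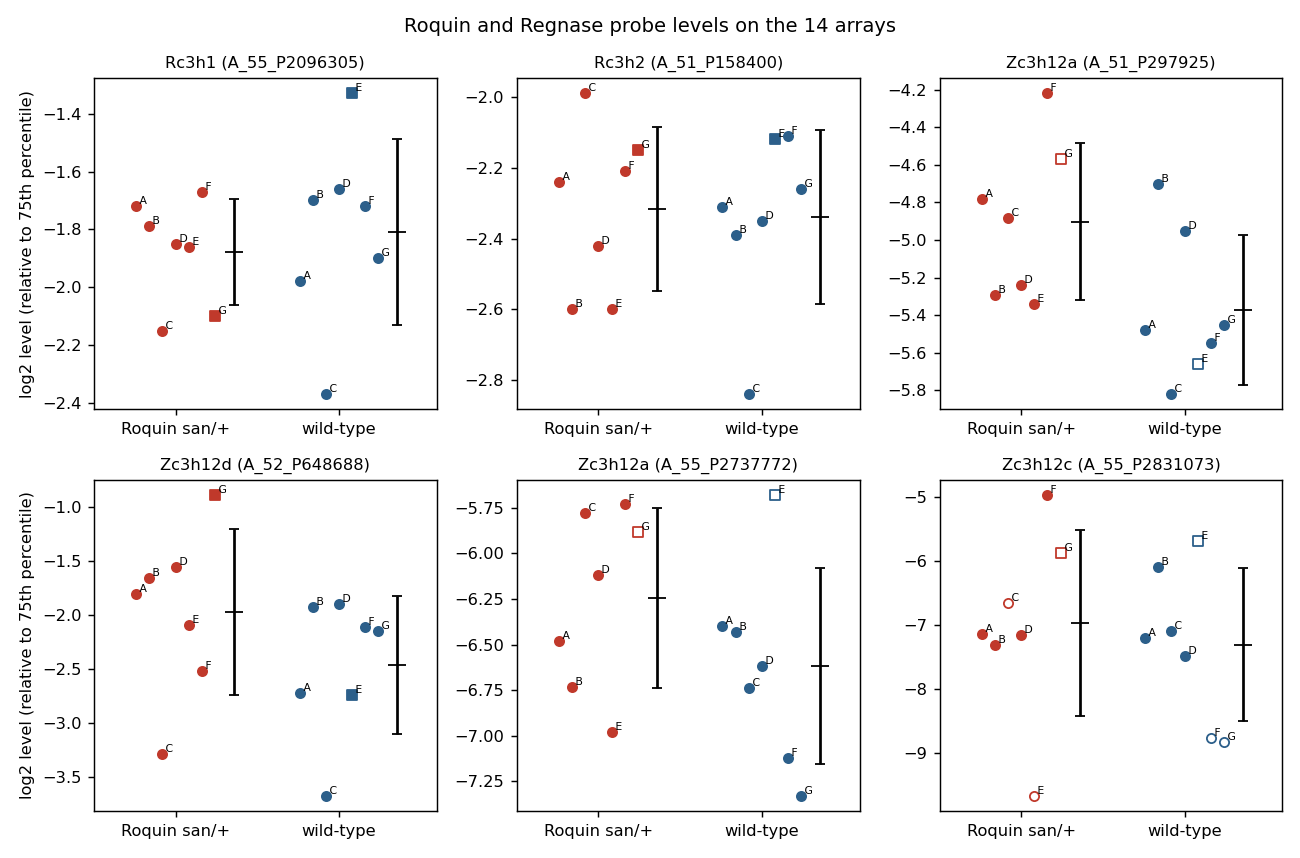
Log2 level relative to each array's 75th percentile (y axis, a separate scale per panel) of 6 probes on the 7 Roquin san/+ arrays (red) and the 7 wild-type arrays (blue), each point 1 array with its letter, the bar showing mean ± SD. Squares are the 2 displaced arrays and open symbols were not well above background. The genotypes overlap in every panel, and Roquin san/+ F is the highest Zc3h12a point of A_51_P297925, at -4.22.

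Rc3h1, which carries the sanroque mutation, was well above background on all 14 arrays with its 1 probe. Its level ran from -2.15 to -1.67 (median -1.85) in Roquin san/+ and from -2.37 to -1.33 (median -1.72) in wild-type. The Roquin san/+ range lay wholly inside the wild-type range, whose ends were wild-type C and the displaced wild-type E. The means were -1.88 ± 0.18 and -1.81 ± 0.32 (SD, n = 7 each). The difference, Roquin san/+ minus wild-type, was -0.07 with a 95% interval from -0.42 to 0.28, that is a fold of 0.95 with an interval from 0.75 to 1.21 (limma adjusted p = 0.962, exact two-sided permutation p = 0.633). Without both displaced arrays it was 0.05, so its sign is not settled. Within slide 1 and slide 2 it was -0.08 and -0.05.

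The mRNA made from the mutant allele and that from the wild-type allele are read together by this probe. With the scaling used, the interval thus runs from 0.75 to 1.21 times the wild-type level for the total Rc3h1 signal of heterozygous cells. It covers the spread between samples and not the choice of processing. Over the alternative settings the log2 difference itself ran from -0.24 (75th percentile over all probes) to 0.05 (without both displaced arrays). In such bulk RNA, fewer cells that express a gene and less RNA per cell cannot be told apart. The 3 genes whose pattern over the 12 well-placed arrays was most like that of Rc3h1 were Mark4, a microtubule-affinity regulating kinase (Pearson r = 0.975, and 0.501 over all 14 arrays), Tcea2, a transcription elongation factor (0.973 and 0.785), and Ezh1, a histone H3 lysine methyltransferase (0.962 and 0.812). These genes were picked as the highest of all tested genes, and the arrays share their brightness and slide, so the values are a description.

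Rc3h2 encodes the paralogue Roquin-2, which shares mRNA targets with Roquin-1. Its probe A_51_P158400 was well above background on all 14 arrays. The level ran from -2.60 to -1.99 (median -2.24) in Roquin san/+ and from -2.84 to -2.11 (median -2.31) in wild-type. Wild-type C stood below the rest. The means were -2.31 ± 0.23 and -2.34 ± 0.25 (SD, n = 7 each), a difference of 0.03 with a 95% interval from -0.31 to 0.36 (limma adjusted p = 0.988, exact permutation p = 0.849). Within slide 1 it was -0.05 and within slide 2 it was -0.11, both of the opposite sign to the difference that leaves slide aside.

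The other three Rc3h2 probes gave differences of 0.14 (95% interval -0.29 to 0.56, A_55_P2716346), -0.08 (-0.40 to 0.23, A_66_P114959) and 0.11 (-0.66 to 0.88, A_55_P2618831), with limma adjusted p-values of 0.927, 0.946 and 0.976. Probe A_55_P2618831 reads near the start of its transcript, from base 393. It was not well above background on Roquin san/+ C or on the displaced arrays, and its values on the latter are their lowest possible ones. Over the 12 well-placed arrays the levels of the other probes were correlated with each other at r = 0.59 to 0.70, and with A_55_P2618831 at -0.23 to 0.12. The 4 probes thus differ in sign, and all 4 intervals include 0.

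**Figure D2:**
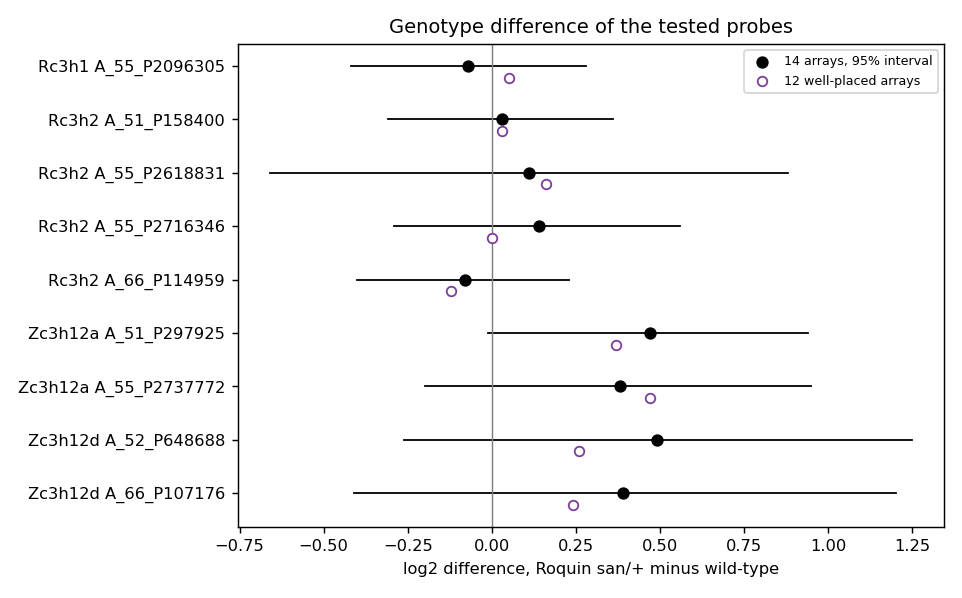
Log2 difference, Roquin san/+ minus wild-type (x axis), of the 9 tested probes. Filled points are the differences over all 14 arrays with limma's 95% interval, and open points are the differences over the 12 well-placed arrays. Every interval includes 0, and the Zc3h12a probe A_51_P297925 comes nearest to leaving it out, with an interval from -0.01 to 0.94.

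Zc3h12a encodes Regnase-1, the endonuclease cleaved by Malt1, and it had the smallest p-value of these genes. On probe A_51_P297925 the level in Roquin san/+ was between -5.34 and -4.22 (median -4.88), and in wild-type between -5.82 and -4.70 (median -5.48). Roquin san/+ F was the highest array. Of the Roquin san/+ arrays, F and the displaced G lay above every wild-type array, and wild-type A, C, E, F and G lay below every Roquin san/+ array, with wild-type B and D between. On this probe the displaced Roquin san/+ G and wild-type E were not well above background. Wild-type E, at -5.66, lay next to its lowest possible level of -5.68. The means were -4.90 ± 0.42 and -5.37 ± 0.40 (SD, n = 7 each). The difference was 0.47 with a 95% interval from -0.01 to 0.94, a fold of 1.38 (limma unadjusted p = 0.0524, adjusted p = 0.866, exact two-sided permutation p = 0.0542).

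The Zc3h12a difference was not even across arrays. It was 0.75 on slide 1 (exact permutation p = 0.0952) and 0.03 on slide 2 (p = 0.952), where 21 arrangements allow no p below 0.0476. Whether the slides differ was not tested. Without Roquin san/+ F, the array with the highest B-cell, myeloid and NK markers, it was 0.36 (exact p = 0.109), and without both displaced arrays, on which this probe was not well above background, it was 0.37 (p = 0.158). After quantile normalization it was 0.15 (exact permutation p = 0.625), and after normexp background correction it was 0.57 (p = 0.039), while the median over all tested probes was -0.08 and 0.23 under those settings and 0.07 in the reported fit. Relative to that median the difference of the probe was above 0 under all 3 settings. Leaving out 1 of Roquin san/+ B, D and E or wild-type B and D gave 0.52 to 0.58. The exact permutation p was 0.0163 to 0.0449 and the limma adjusted p 0.562 to 0.902. These arrays are the lowest of Roquin san/+ and the highest of wild-type on this probe. Leaving out any of them must raise the difference, so these p-values add no evidence for it.

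The second Zc3h12a probe, A_55_P2737772, reads near the start of the transcript and moved with the first over the 12 well-placed arrays (r = 0.68). Its level ran from -6.98 to -5.73 (median -6.12) in Roquin san/+ and from -7.33 to -5.68 (median -6.62) in wild-type, the upper wild-type end being the lowest possible value of the displaced wild-type E. Roquin san/+ G, the other displaced array, was at -5.88, also its lowest possible value. The difference was 0.38 with a 95% interval from -0.20 to 0.95 (limma adjusted p = 0.866, exact permutation p = 0.195). Without both displaced arrays the difference was 0.47 (exact permutation p = 0.104). On slide 1, with Roquin san/+ G included, it was 1.11 (exact permutation p = 0.0476, the smallest possible). On slide 2, with wild-type E included, it was -0.17 (exact permutation p = 0.714). Both probes thus had their higher Roquin san/+ levels on slide 1, which holds the displaced Roquin san/+ G, the dim Roquin san/+ C and Roquin san/+ F.

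Over the marker lists, the myeloid genes had a median difference of 0.91 (8 of 8 above 0) and the B-cell genes one of 0.88 (5 of 5 tested). The summed level of the 8 myeloid markers was 6.44 on Roquin san/+ F, between 2.16 and 5.11 (C) on the remaining arrays of that genotype and between 0.70 and 4.87 (C) in wild-type. That of the 7 B-cell markers was 4.24, -1.38 to 0.91 and -2.23 to 2.27. The median difference of the 7 CD4+ T-cell markers was -0.10, with 1 of 7 above 0. Regnase-1 is also well known from macrophages, and the part of their RNA in the Zc3h12a difference was not tested. The genes whose pattern over the 12 well-placed arrays was most like that of A_51_P297925 were Coq8a, a mitochondrial factor of coenzyme Q synthesis (r = 0.953, and 0.962 over all 14), Tlr6, a Toll-like receptor (0.939 and 0.905), and Trp53i11, a p53-inducible gene (0.937 and 0.896), picked and read as for Rc3h1.

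**Figure D3:**
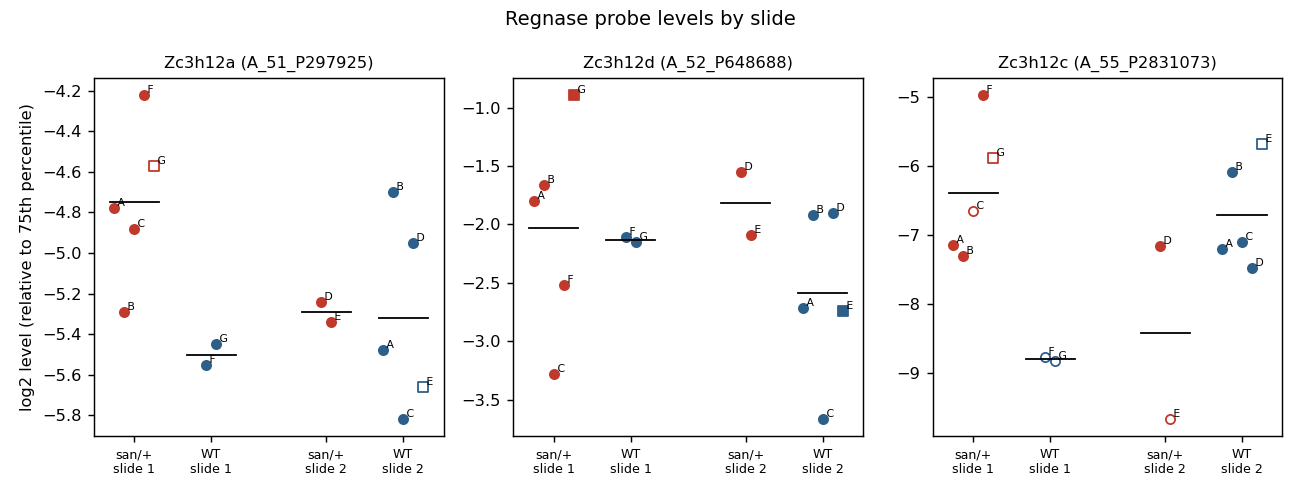
Log2 level relative to each array's 75th percentile (y axis, a separate scale per panel) of 3 Regnase probes by slide and genotype (san/+ is Roquin san/+ in red, WT is wild-type in blue), each point 1 array with its letter and each line the mean of its group on that slide. Squares are displaced arrays and open symbols were not well above background. For Zc3h12a the genotype means lie 0.75 apart on slide 1 and 0.03 apart on slide 2, and for Zc3h12c both wild-type points of slide 1 are open.

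Zc3h12d encodes Regnase-4, a member of the family that is expressed in lymphocytes. Its probe A_52_P648688 was well above background on all 14 arrays. The level ran from -3.28 to -0.89 (median -1.80) in Roquin san/+ and from -3.67 to -1.90 (median -2.15) in wild-type. The highest array was the displaced Roquin san/+ G, and replicate C was the lowest of each genotype. The means were -1.97 ± 0.76 and -2.46 ± 0.64 (SD, n = 7 each), and the difference was 0.49 with a 95% interval from -0.26 to 1.25 (fold 1.40, limma adjusted p = 0.866, exact permutation p = 0.216).

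Without Roquin san/+ C, the lowest array of its genotype, the Zc3h12d difference had to rise, and was 0.71 (exact permutation p = 0.0489, limma adjusted p = 0.992). Without both displaced arrays the Zc3h12d difference was 0.26 (exact permutation p = 0.502). Over all 7 arrays of a slide the difference was 0.10 on slide 1 and 0.77 on slide 2, the reverse order of that seen for Zc3h12a. The second probe, A_66_P107176, gave a difference of 0.39 with a 95% interval from -0.41 to 1.20 (limma adjusted p = 0.874, exact permutation p = 0.349), of 0.75 on slide 1 and of -0.32 on slide 2. Over the 12 well-placed arrays the 2 probes were correlated at r = 0.60. The 2 probes thus differ in which slide has the larger difference.

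Zc3h12c encodes Regnase-3, which is best known from macrophages. No probe of it was well above background on all 6 well-placed arrays of either genotype, and none was tested with limma. Probe A_55_P2831073 was well above background on 4 Roquin san/+ and 4 wild-type arrays, with levels from -9.67 to -4.97 (median -7.14) and from -8.83 to -5.68 (median -7.20). Roquin san/+ F was the highest of all. The difference of the measured values, those not above background included, was 0.33 (exact permutation p = 0.643). On slide 1 neither wild-type array was above background, and on slide 2 neither Roquin san/+ E nor the displaced wild-type E was, so no difference within a slide is read from this probe. Probe A_52_P763562 was well above background on 3 Roquin san/+ and 4 wild-type arrays, with a difference of 1.30 over the same kind of values (exact permutation p = 0.162). Probe A_55_P2742495 was above background on Roquin san/+ A alone, and no fold is given for it. The 3 probes were correlated with each other at r = -0.09 to 0.20 over the 12 well-placed arrays, so their signals did not rise and fall together.

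No gene among the regulators, cofactors and relatives of these proteins passed the test. Of 31 genes on that list, 29 were tested, 17 with a difference above 0 and 12 below, and their median was 0.05 beside 0.07 over all tested probes. None of the 29 had an unadjusted p below 0.05, where 3.81% of all tested probes did. The smallest limma p-values belonged to Cnot9, a CCR4-NOT subunit (a difference of -0.41, exact permutation p = 0.178), Malt1, the paracaspase that cleaves Regnase-1 and Roquin (0.34, p = 0.299), and Edc4, a scaffold of the decapping complex (-0.14, p = 0.0781). Cnot9 was dim, with mean levels of -6.18 in Roquin san/+ and -5.77 in wild-type, near the lowest levels of the displaced arrays. Its difference was 0.354 on slide 1 and -1.29 on slide 2. Nufip2, a cofactor bound by Roquin, had a difference of 0.12 with a 95% interval from -0.27 to 0.50. Upf1, the helicase that Regnase-1 works with, had a difference of 0.19 with an interval from -0.20 to 0.58. Zc3h12b, the remaining Regnase gene, was not tested, since in neither genotype was it well above background on every well-placed array. Its mean levels were -8.65 in Roquin san/+ and -9.71 in wild-type. The displaced arrays cannot read below -5.88 and -5.68. The difference of the measured values, those not above background included, was 1.06 (exact permutation p = 0.287), and no change is read from it. Zfp36, the other untested gene of this list, lacked a value on at least 1 array.

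The list of mRNAs known as targets of Roquin or Regnase-1 was chosen with earlier results of these data known, so its values are a description. Of 13 on the list, 9 were tested, and their differences ran from 0.00 to 0.96 with a median of 0.39, beside 0.07 over all tested probes, of which 60.4% were above 0. The smallest of the 9 differences belonged to Nfkbid (0.00) and Nfkbiz (0.05). The median of the 9 was 0.23 without wild-type C, 0.22 with the 75th percentile over all probes and 0.16 with the names as deposited. Medians over all tested probes under these settings were 0.05, -0.1 and -0.03. None of the 9 passed the adjusted test and 2 had an unadjusted p below 0.05, as did 3.81% of all tested probes. Irf4, a transcription factor of activated T-cells and plasma cells, had levels of -3.26 in Roquin san/+ and -4.22 in wild-type on average, a difference of 0.96 with a 95% interval from 0.32 to 1.59 (limma unadjusted p = 0.00607, adjusted p = 0.866, exact permutation p = 0.0122). It was 0.85 without both displaced arrays and 0.81 without Roquin san/+ F, and 1.55 on slide 1 and 0.51 on slide 2. For the mean of the Irf4 probes it was 0.70 (exact permutation p = 0.0746). Icos, the costimulatory receptor whose mRNA Roquin-1 binds, had levels of -0.18 and -0.87, a difference of 0.69 with an interval from 0.03 to 1.36 (unadjusted p = 0.0428, adjusted p = 0.866, exact p = 0.0565). Without Roquin san/+ F, where Icos was lowest among Roquin san/+, it was 0.92 (exact p = 0.00233, adjusted p = 0.974). It was 0.51 without wild-type C (exact p = 0.113), 0.58 without Roquin san/+ G (p = 0.111), 0.63 without both displaced arrays (p = 0.113) and 0.59 for the mean of its probes (p = 0.128). Ctla4, an inhibitory receptor, had a difference of 0.68 with an interval from -0.04 to 1.39 (unadjusted p = 0.0619, adjusted p = 0.866). Il6, Il2, Ptgs2 and Il12b were not tested. B-cells and myeloid cells also express several of these mRNAs, and the part of the higher B-cell and myeloid markers in these differences was not tested.

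**Figure D4:**
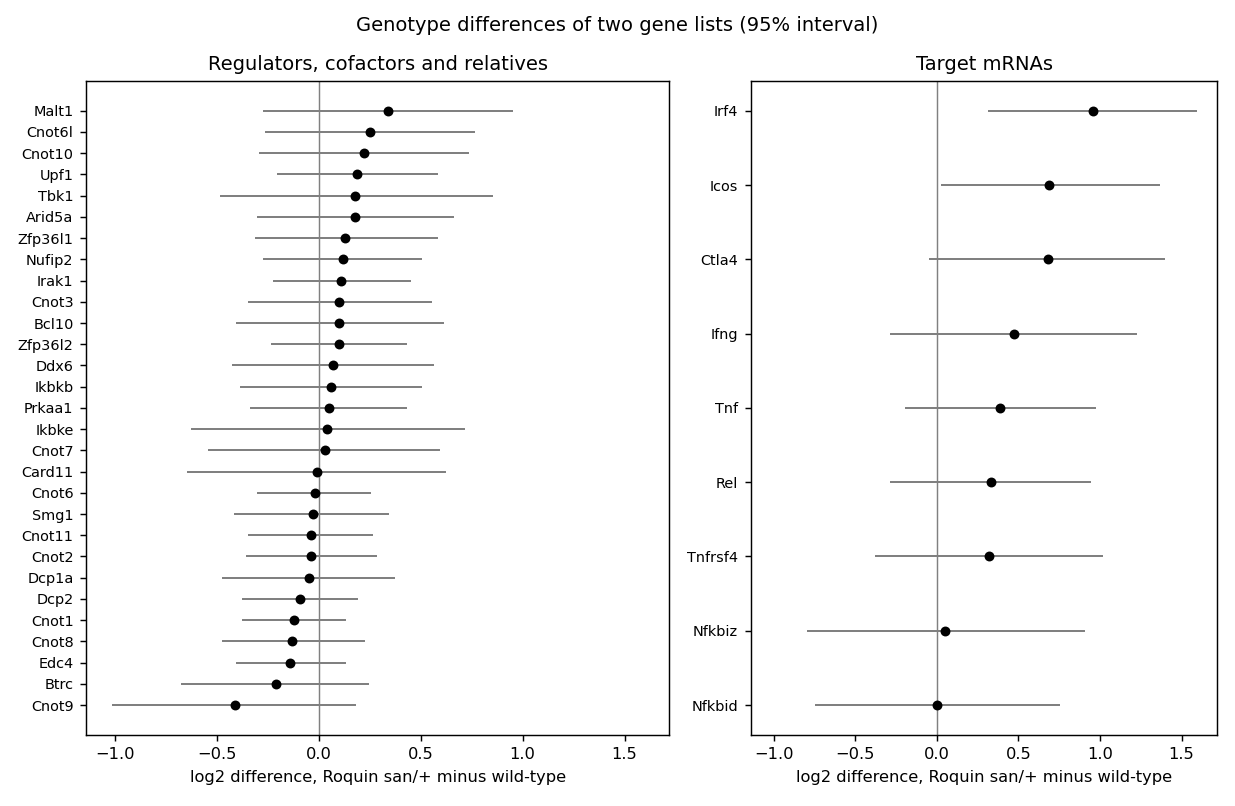
Log2 difference, Roquin san/+ minus wild-type (x axis), with limma's 95% interval for the 29 tested regulators, cofactors and relatives (left) and the 9 tested target mRNAs (right), 1 probe per gene over 14 arrays. Differences on the left scatter on both sides of 0, from -0.41 to 0.34, and those on the right run from 0.00 to 0.96, with the intervals of Irf4 and Icos above 0.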

How the data were processed

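The authors deposited each array's scanner output as spot intensity, extracted with Agilent Feature Extraction 10.5.1.1 per the labels, with a processed signal already background-subtracted. A second deposited table holds log2 values of these arrays, by a method that is not given in the sources used here. The methods of the paper describe other samples.

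Spot positions were checked by correlating every array, shifted by up to 6 rows or columns, with the spot-wise median, and 2 arrays were moved by 2 rows. Control spots were left out, as were spots flagged as outliers on the 12 well-placed arrays. The outlier flags of the 2 displaced arrays were not used. Spots of one probe were averaged, and the 75th percentile was subtracted. Of 29046 probes well above background on the 6 well-placed arrays of at least 1 genotype (802 through Roquin san/+ alone, 3959 through wild-type alone), 234 lacked a value and 28812 entered the limma fit (version 3.58.1, R 4.3.3, Benjamini-Hochberg threshold 0.05). Single probes had a two-sided exact permutation test over 3432 arrangements. Other steps used Python 3.11.15. The test was checked on 28812 simulated probes, of which 100 were changed by 1 log2 unit and 100 by 2. It called 33% and 77% of these, with 10 false calls, so most changes of 1 log2 unit were missed.

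A gene on a list was represented by its tested probe with the highest mean. All probes of the 5 genes were described. From the lists, genes called by limma, the 3 with the smallest p, and Icos, Malt1, Nufip2, Upf1 and Zc3h12b were named, with the 3 genes most correlated with Rc3h1 and with Zc3h12a. The genes and lists were chosen with earlier results of these data known. Arrays sharing a letter (A to G) were not paired, by the correlation of their deviations from the group means. Alternatives covered the move, background correction, scaling, filter, slide and letter blocks, the authors' values, the variance model and leaving out each array. The number of arrays limits the precision.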

Additional observations from a re-analysis of the deposited data

Results flagged for a closer look

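Of 24 groups of 7 arrays (12 probes in 2 genotypes), 2 held an array set apart by Dixon's test, where chance gives about 1 in 20. For the Rc3h2 probe A_51_P158400, wild-type C was the lowest of its group at -2.84, beside -2.39 to -2.11 on the other wild-type arrays, a gap of 0.614 of the range. For the Zc3h12c probe A_55_P2742495, wild-type E was the highest of its group at -5.68, beside -11.38 to -10.34, a gap of 0.819 of the range. This is a displaced array, and -5.68 is the lowest level that its processed signal reaches.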

How the results depend on the processing

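No probe was called under any alternative (0 of the probes tested in each, by adjusted p in limma), while the number with an unadjusted p below 0.05 ran from 53 with the probe names as deposited to 2383 without wild-type E. The letter as a replicate block gave the same 0 calls and the same Zc3h12a difference (0.469). Letters did not pair the arrays (correlations of -0.332 to 0.434, and 1 of 7 arrays closest to its own letter). The Zc3h12a difference kept its sign everywhere (0.0337 to 0.750, leaving out 1 array 0.355 to 0.581), as did Zc3h12d (0.0998 to 0.775, leaving out 1 array 0.288 to 0.710). The former gave no value under the filter over all 14 arrays. Directions turned as follows, and the cause was not tested. Rc3h1 was 0.0483 without both displaced arrays and -0.163 to 0.0108 with 1 array left out. Rc3h2 was -0.107 with the names as deposited, -0.0483 after quantile normalization, -0.148 and -0.0294 with the 75th percentile over all probes and over those detected on all 12 well-placed arrays, -0.0806 with a slide block, -0.0546 and -0.107 on slides 1 and 2, -0.135 with letter and slide as blocks, -0.0689 with the authors' log2 values and -0.0583 to 0.0728 with 1 array left out. Zc3h12c was -0.181 after quantile normalization and its measured values differed by -1.71 on slide 2 and 2.40 on slide 1, where values not above background (both wild-type arrays on slide 1) leave neither as a difference, and by 0.00177 to 0.785 with 1 array left out.

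Of the further probes, Rc3h2 A_55_P2618831 was -0.483 after quantile normalization, -0.0636 with the percentile over all probes, -0.268 on slide 2, -0.309 with the authors' values and -0.0914 to 0.362 with 1 array left out. Rc3h2 A_55_P2716346 was -0.229 with the names as deposited, -0.112 after quantile normalization, -0.0358 with the percentile over all probes, -0.0275 with slide as a block, -0.0750 on slide 2, -0.0211 with letter and slide as blocks and -0.0476 with the authors' values. Rc3h2 A_66_P114959 was 0.0313 after normexp correction. Zc3h12a A_55_P2737772 was -0.0634 after quantile normalization and -0.173 on slide 2, and Zc3h12d A_66_P107176 was -0.321 on slide 2. Cnot9 was 0.169 after normexp correction and 0.354 on slide 1, Edc4 0.00199 on slide 1, Nufip2 -0.0643 with the names as deposited, -0.0545 with the percentile over all probes and -0.0968 on slide 1, and Upf1 -0.0307 with letter and slide as blocks. Irf4, Icos, Ctla4 and Malt1 kept their sign in every setting run.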
